A study of Mus musculus with 4 samples.

Results

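The ribosome of the cytosol is built from ribosomal RNAs and a set of ribosomal proteins, and the genes of these proteins are the subject here. Members were the protein-coding RefSeq genes named Rpsa, Rplp0 to Rplp2, or Rpl or Rps followed by a number and at most the letter a, x, y or l, with S6 kinases and pseudogenes left out. The rule took 81 of 21887 protein-coding genes on the mm10 assembly: 47 genes of the large 60S subunit, 31 of the small 40S subunit with Rpsa among them, and 3 genes of the P stalk, which belongs to the 60S subunit and is kept apart here. It used names and no measured value. The genes lie on 19 chromosomes, 14 of them on chromosome 7 and 4 on the X.

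Chromatin accessibility was mapped by ATAC-seq, in which a transposase cuts open DNA, in tissue of the PVH, the paraventricular nucleus in the hypothalamus, from Otp fl/fl; Ai14 mice aged 12 weeks. Otp is a homeobox transcription factor of hypothalamic neurons, the fl/fl alleles can be recombined by Cre, and Ai14 is a Cre-dependent red fluorescent reporter. The control group received AAV-GFP and the other group AAV-Cre, a virus that carries the recombinase, and tissue was taken 4 weeks after injection. Each group has 2 libraries. Both groups carry the same floxed alleles and reporter, so they differ in the virus and, where Cre reached the cells, in Otp. The labels used here give no promoter for the viruses, no sex, no number or pooling of animals, and no sorting, and the share of nuclei that the virus reached is not known here. The study asked where accessibility near Otp targets is lost after adult deletion. In bulk tissue, fewer nuclei of a type and less open chromatin per nucleus cannot be told apart.

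The data are lists of peaks of 57682 and 34100 regions for AAV-GFP replicates 1 and 2, and 23384 and 26612 regions for AAV-Cre replicates 1 and 2. The authors' group lists hold 28592 regions for AAV-GFP and 16614 for AAV-Cre. The AAV-Cre lists are the shorter, so a region that lost accessibility and a region just under the calling threshold cannot be told apart there. The read depth behind each list is unknown. A gene-end peak is a peak that shares at least 1 base with the 1 kb to either side of either end of a gene, and its fold enrichment is the authors' value over the background of the peak caller. Of 5 neuronal marker genes, 4 had such a peak in every library (Rbfox3 had none in any). Of 7 PVH markers, 5, 4, 2 and 3 had it in AAV-GFP replicates 1 and 2 and AAV-Cre replicates 1 and 2, with none at Avp. The 3 microglial and 3 endothelial markers had none in any library, 2 of 4 oligodendrocyte markers had none (Mog and Sox10), and 2 of 4 astrocyte markers had one in all 4 (Gfap and Aldoc). Otp itself had a gene-end peak of fold 3.73 and 4.22 in AAV-GFP, none in AAV-Cre replicate 1 and 5.52 in AAV-Cre replicate 2. A peak at a gene end does not measure recombination of floxed exons, so it checks no label.

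Ribosomal protein genes are transcribed by RNA polymerase II in every cell that grows or makes protein, neurons included, and their products must be made in near equal amounts to build ribosomes. Their mRNAs usually begin with a C followed by an unbroken run of C and T, the 5′ terminal oligopyrimidine tract, through which mTOR signalling controls their translation. Many carry small nucleolar RNAs (snoRNAs), guides for ribosomal RNA modification, in their introns. Their promoters are CpG-rich, are nucleosome-poor in most tissues, and are known for binding sites of ETS factors such as GABPA, of YY1 and of SP factors.

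The genes are short, with a median length of 3175 bp (592 to 11774 bp) against 17169 bp for protein-coding genes. An annotated snoRNA lies inside 29 of the 81, which is 35.8% against 1.70% of protein-coding genes (372), and those 29 genes hold 58 snoRNAs. Rpl4 holds 5 of them and Rpl13a holds 4. RefSeq promoter windows on GRCm38.p6, from 250 bases before to 50 bases after an annotated start, were found for 61 members, 10 of which have several starts, giving 73 windows. Stretches from 100 bases before to 50 bases after the start are shown for 6 members picked by their accessibility: the strongest and the weakest of those with an annotated start and a peak in every library, the largest shift in rank after Cre in each direction at an annotated start, and 2 genes with no peak. Each is written 5′ to 3′ on the strand of the gene, and capitals mark the longest run of C and T that reaches the 10 bases to either side of the annotated start. Rpl27 (60S), with the strongest peak of these, lies on the plus strand at chr11:101442145-101442294. Rpl28 (60S), with the weakest peak of these, lies on the plus strand at chr7:4792865-4793014. Rpsa (40S, also known as the laminin receptor), with the largest shift to a weaker rank, lies on the plus strand at chr9:120127666-120127815. Rps15a (40S), with the largest shift to a stronger rank among genes whose groups did not overlap and whose strongest peak is at the start, lies on the minus strand at chr7:118116098-118116247. Rpl10l, an intronless testis copy of Rpl10, lies on the minus strand at chr12:66284352-66284501 and had no peak. Rpl39l, a germ-cell copy of Rpl39, lies on the plus strand at chr16:10170128-10170277 and had no peak.
Rpl27: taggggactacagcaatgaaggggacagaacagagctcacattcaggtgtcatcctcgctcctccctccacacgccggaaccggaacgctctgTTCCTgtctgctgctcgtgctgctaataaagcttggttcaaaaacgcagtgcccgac
Rpl28: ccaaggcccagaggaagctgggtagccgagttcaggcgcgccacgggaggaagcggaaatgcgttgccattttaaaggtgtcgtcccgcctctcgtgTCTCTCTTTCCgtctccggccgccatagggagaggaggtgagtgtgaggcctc
Rpsa: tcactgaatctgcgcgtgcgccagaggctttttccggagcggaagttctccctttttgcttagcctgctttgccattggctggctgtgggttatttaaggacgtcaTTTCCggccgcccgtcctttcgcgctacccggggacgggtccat
Rps15a: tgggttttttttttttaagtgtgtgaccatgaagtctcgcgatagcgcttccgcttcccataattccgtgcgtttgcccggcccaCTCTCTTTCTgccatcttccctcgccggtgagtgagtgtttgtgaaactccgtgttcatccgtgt
Rpl10l: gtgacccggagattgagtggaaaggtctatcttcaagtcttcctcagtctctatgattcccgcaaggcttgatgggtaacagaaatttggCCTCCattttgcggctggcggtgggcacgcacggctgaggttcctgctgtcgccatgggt
Rpl39l: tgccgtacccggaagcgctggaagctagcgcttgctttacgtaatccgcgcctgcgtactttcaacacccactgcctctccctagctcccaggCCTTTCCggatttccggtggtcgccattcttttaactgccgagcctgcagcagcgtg

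The marked runs are 5 bases in Rpl27, 11 in Rpl28, 5 in Rpsa, 10 in Rps15a, 5 in Rpl10l and 7 in Rpl39l, so a long run was present at the weakest of these peaks and absent at the strongest. Over the 73 windows of ribosomal protein genes the run had a median of 6 bases and reached 21 bases in Rpl7a, against a median of 4 bases in 21263 windows of protein-coding genes. A run of at least 8 bases was found in 30 windows (41.1%, against 13.7% of all coding windows), and a C stood at the annotated start in 21 (28.8%, against 13.8%). Runs of at least 8 bases close to the annotated start were thus more frequent in these windows than in coding windows at large. The run counted need not cover the start: in Rpl4 and Rps15a it ended before the start, and in Rps12 it began after it. The counts are therefore not counts of the oligopyrimidine tract, which begins at the first base of the mRNA.

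Among motifs searched on both strands, the ETS motif CCGGAAG was the one furthest from the background, in 26 of the 73 windows (35.6%, against 11.6% of coding windows). The YY1 motif AAGATGG was found in 11 (15.1%, against 6.24%), the NRF1 motif GCATGCG in 5 (6.85%, against 4.44%), the MYC E box CACGTG in 8 (10.96%, against 7.84%) and the GC box GGGCGG in 42 (57.5%, against 46.2%). CCAAT was found in 22 (30.1%, against 38.2%) and TATAAA in 7 (9.59%, against 12.6%), both less often than in coding windows at large. No motif lies inside another, though some can share bases where they meet, such as the ETS motif with the GC box or with the YY1 motif. A window may hold several. The windows held a median of 21 CpG pairs against 13, at a median GC content of 57.7% against 56.3%. Of the genes shown, Rpsa had matches to the ETS motif, the GC box and CCAAT, Rps15a to the YY1 motif, the GC box and CCAAT, Rpl27 and Rpl10l to the GC box, Rpl39l to the ETS motif, and Rpl28 to none of the 7. A match is a stretch of letters and not a measured binding site.

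Most ribosomal protein genes were accessible at an end in PVH tissue of both groups. In AAV-GFP replicates 1 and 2, 75 of 81 members each had a gene-end peak (92.6%), where 56.2 and 52.2% of all protein-coding genes had one. In AAV-Cre replicates 1 and 2 the counts were 65 (80.2%) and 66 (81.5%), where the background was 45.5 and 47.1%. The 75 genes were the same in both AAV-GFP libraries, since no member had a peak in a single control library. A peak was present in all 4 libraries at 60 members (74.1%, background 41.4%) and in none at 6 (7.41%, background 41.9%). By subunit, a peak in all 4 was present at 34 of 47 genes of the 60S subunit, 23 of 31 of the 40S subunit and all 3 of the P stalk. In the group lists, 75 members had a gene-end peak for AAV-GFP and 61 for AAV-Cre (92.6 and 75.3%, against 51.1 and 41.9% of coding genes). The AAV-Cre libraries have shorter lists and fewer PVH markers with a peak, and the part of either in these counts was not tested.

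**Figure D1:**
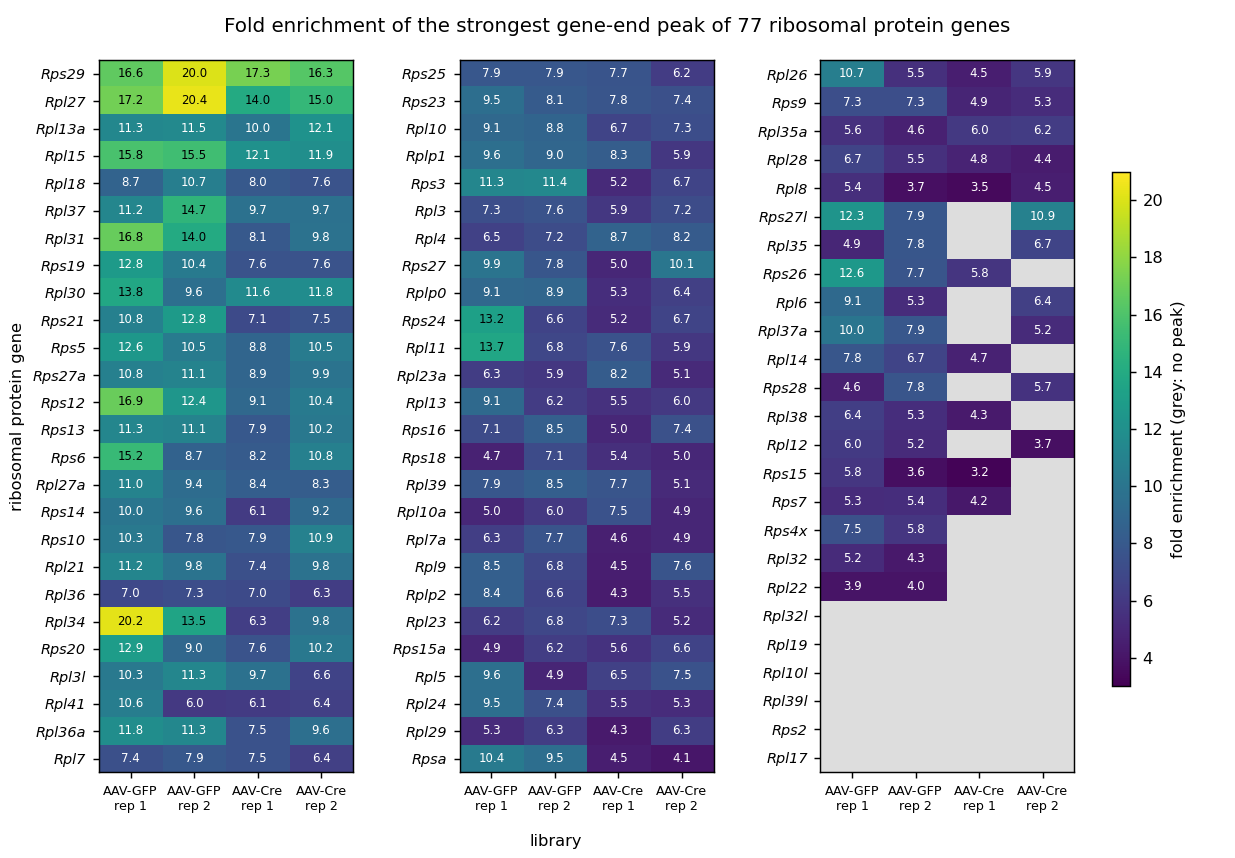
Heat map of the authors' fold enrichment (colour, no unit) of the strongest gene-end peak, with 1 row for each of 77 of the 81 ribosomal protein genes and 1 column for each of the 4 libraries; genes with a peak in all 4 are ordered from the strongest to the weakest mean rank, followed by those with a peak in fewer. Grey marks the absence of a peak: the 6 rows at the bottom are grey throughout, and Rps4x, Rpl32 and Rpl22 are grey in both AAV-Cre columns.

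The share of peaks missing after Cre was close to that at other genes. Of the 75 members open in both control libraries, 15 lacked the peak in at least 1 AAV-Cre library (20.0%, background 18.7%). A peak present in both control libraries and absent from both AAV-Cre libraries was found at 4 members (4.94%, background 3.09%), and the reverse at none (background 0.0868%, which is 19 genes). With 4 members the first share is close to the background. These are shares of all genes, and a peak in both control libraries was present at 75 of 81 members and 11146 of 21887 coding genes.

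Rps4x, the X-linked gene of a core 40S protein, had a peak at its annotated start of fold 7.46 and 5.82 in AAV-GFP replicates 1 and 2 and none in AAV-Cre. Rpl32 of the 60S subunit had 5.19 and 4.26 in AAV-GFP and no peak in AAV-Cre. These control peaks were of middling to low strength: within their own lists, where 0 is the strongest and 100 the weakest, they stood at percentiles 35.1 and 60.6 for Rps4x and 45.8 and 76.0 for Rpl32. Rpl22, which binds RNA besides its place in the 60S subunit, had gene-end folds of only 3.92 and 3.96, from a peak of 121 and 162 bp at the far end of the gene. Rpl22 has 2 annotated starts, the outermost end of the gene and one further than 1 kb inside it. At the inner start it had a peak in every library, with folds of 11.3 and 7.34 in AAV-GFP and 6.51 and 6.34 in AAV-Cre. No peak lay within 1 kb of the outer start in any library. Rpl22 was thus open at its inner start in both groups, which the gene-end rule does not reach. Over 16 settings of window, threshold and list, the main one included, Rps4x was in the AAV-GFP lists alone in all 16, Rpl32 in 11 and Rpl22 in 9.

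Another 6 members had a peak in every library but AAV-Cre replicate 1, the shortest list. They were 5 genes of the 60S or the 40S subunit, given here with their control folds (Rpl12 with folds of 6.04 and 5.24, Rpl35 with 4.93 and 7.82, Rpl37a with 9.98 and 7.90, Rpl6 with 9.13 and 5.28, and Rps28 with 4.61 and 7.77) and Rps27l. Their folds in AAV-Cre replicate 2 were 3.74 for Rpl12, 6.69 for Rpl35, 5.24 for Rpl37a, 6.41 for Rpl6 and 5.66 for Rps28. A further 5 lacked a peak in AAV-Cre replicate 2 alone: Rpl14, Rpl38, Rps7, Rps15 and Rps26. Their folds in AAV-Cre replicate 1 were 4.71, 4.27, 4.16, 3.20 and 5.79, below each gene's highest control value of 7.82, 6.37, 5.36, 5.83 and 12.6. Which of the AAV-Cre libraries lacked the peak thus varied from gene to gene.

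The edge of the window bore on 2 of these cases. Rps27l, a p53-responsive copy of Rps27, had folds of 12.3, 7.86 and 10.9 in AAV-GFP replicates 1 and 2 and AAV-Cre replicate 2, from peaks 988, 899 and 971 bp inside the gene. In AAV-Cre replicate 1 its peak of fold 7.39 lay 1108 bp inside, just past the limit. Rpl38, whose loss alters the axial skeleton of mice, likewise had a peak of fold 6.49 in AAV-Cre replicate 2 at 1184 bp. Rpl38 also had a separate peak at or beside its annotated start, well inside the window. Its folds were 6.37 and 3.45 in AAV-GFP and 4.01 in AAV-Cre replicate 1, and it was not called in AAV-Cre replicate 2.

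Of the 6 members with no gene-end peak, 3 had peaks further inside. Rps2, a 40S gene, was open at its annotated start in every library, with folds of 8.44 and 8.22 in AAV-GFP and 6.44 and 7.53 in AAV-Cre, at least 1554 bp from the outermost end. Rpl19 had weak peaks in every library, with folds of 3.03 and 3.93 in AAV-GFP and 3.95 and 4.78 in AAV-Cre. Rpl17 had inner peaks of fold 4.98, 5.25 and 5.42 in AAV-GFP replicates 1 and 2 and AAV-Cre replicate 2. Only Rpl10l, Rpl39l and Rpl32l had no peak within the gene or 1 kb beyond it in any library, and all 3 carry the suffix of a gene copy. Counted over the gene and 1 kb beyond it, a reading chosen after these cases were seen, 78 of the 81 members had a peak in at least 1 library and 65 in all 4 (80.2%, against 51.1% of coding genes).

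Rpl3l, the heart and skeletal muscle copy of Rpl3, had gene-end folds of 10.3 and 11.3 in AAV-GFP and 9.71 and 6.64 in AAV-Cre. That peak lies 3589 to 3684 bp from its annotated start and also within 1 kb of an end of Msrb1, and there was no peak within 1 kb of an annotated start of Rpl3l in any library. Of the 5 members with the suffix l, Rps27l alone had a peak at its annotated start. Rpl3 itself had folds of 7.34, 7.59, 5.90 and 7.18 in AAV-GFP replicates 1 and 2 and AAV-Cre replicates 1 and 2.

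Peaks of this kind were shared with a neighbour about as often as at other genes. The strongest gene-end peak lay within 1 kb of another protein-coding gene's end at 18 of 75, 19 of 75, 16 of 65 and 17 of 66 members in AAV-GFP replicates 1 and 2 and AAV-Cre replicates 1 and 2 (24.0, 25.3, 24.6 and 25.8%, against 25.6, 26.9, 27.8 and 27.5% of coding genes with a peak). Examples are Rpl15 with Nkiras1, Rpl7a with Med22 and Rps25 with Trappc4. Where starts are annotated and a gene-end peak was present, the strongest peak was within 1 kb of a start at 50 members, was not at 5 (Rpl22, Rpl18, Rpl4, Rpl3l and Rps18) and was in some libraries at 1 (Rpl41). For Rpl4 and Rps18 the peak stood at an end of Snapc5 and of B3galt4. At its own annotated start Rps18 had folds of 3.86 and 3.42 in AAV-GFP and no peak in AAV-Cre, although it is counted among the 60 by its gene ends.

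Most peaks sat on the start. Among the 61 members whose strand is known, the end with the start had a peak at 54, 54, 45 and 47 in AAV-GFP replicates 1 and 2 and AAV-Cre replicates 1 and 2, and the other end at 9, 8, 7 and 7. These are 88.5, 88.5, 73.8 and 77.05% at the start end, against 54.2, 50.8, 44.6 and 46.1% of coding genes, and 14.8, 13.1, 11.5 and 11.5% at the other end, against 7.57, 5.86, 4.30 and 4.72%. The summit of the peak lay a median of 74, 42, 49 and 70 bp upstream of the nearest annotated start in these libraries, written as -74, -42, -49 and -70 bp. It was upstream at 92.6, 74.1, 73.3 and 76.6% of these members, against 72.3, 66.5, 63.6 and 63.5% of coding genes. It was within 250 bp of the start at 48 of 54, 43 of 54, 36 of 45 and 39 of 47 (88.9, 79.6, 80.0 and 83.0%, against 78.5, 77.1, 75.01 and 75.5% of coding genes). The peak covered the start itself at 50, 48, 36 and 41 members.

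**Figure D2:**
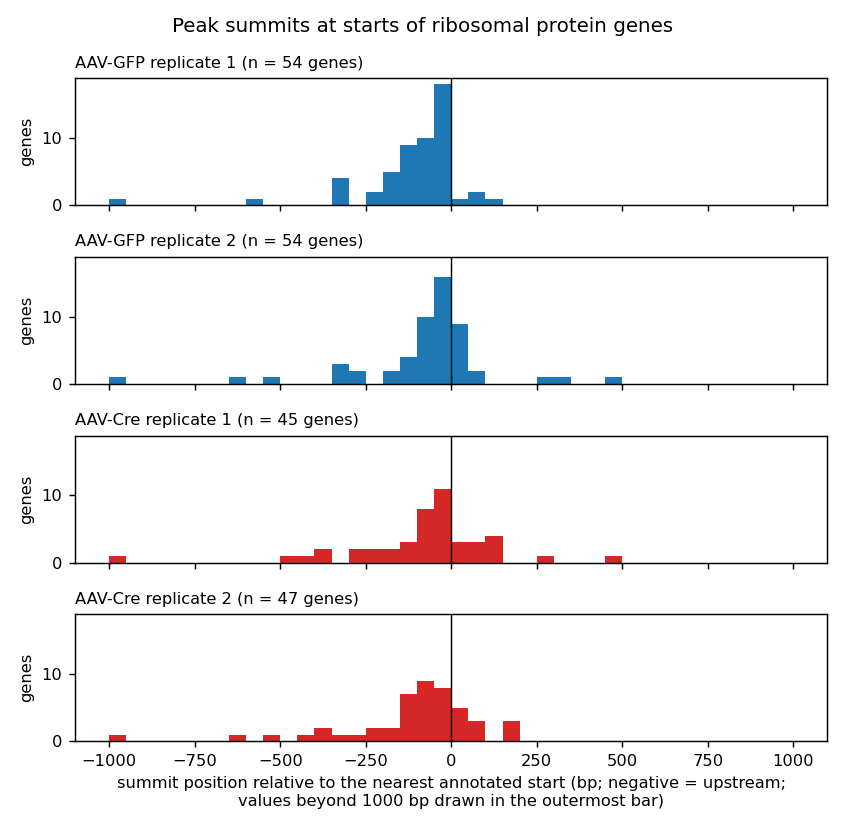
Histograms of the distance in bp from the nearest annotated start to the summit of the strongest peak at the start end of each ribosomal protein gene (negative values are upstream), with 1 panel for each library and the number of genes per bar on the vertical axis. The bars gather just upstream of 0 in each panel, with medians of -74, -42, -49 and -70 bp.

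Peaks at ribosomal protein genes were of ordinary height. Their median fold enrichment was 9.13, 7.79, 6.71 and 6.71 in AAV-GFP replicates 1 and 2 and AAV-Cre replicates 1 and 2, against 8.71, 7.96, 6.85 and 6.94 for coding genes with a gene-end peak. They were somewhat wider, with medians of 514, 587, 497 and 496.5 bp against 465, 526, 431 and 451 bp. Their median percentile within each list was 11.3, 20.1, 28.0 and 26.5, against 15.1, 22.5, 29.1 and 27.3. The lists differ in length, so percentiles are read within a library only. Members thus stood above coding genes at large in the share with a peak, and differed little from them in peak strength.

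Folds spread widely among members, from 3.92 to 20.2 in AAV-GFP replicate 1 and from 3.20 to 17.3 in AAV-Cre replicate 1. Rps29, a zinc-binding 40S protein, had the strongest peaks by mean percentile, with folds of 16.6 and 20.0 in AAV-GFP and 17.3 and 16.3 in AAV-Cre. Rpl27 followed with 17.2 and 20.4 in AAV-GFP and 14.0 and 14.97 in AAV-Cre, and Rpl15 had 15.8 and 15.5 in AAV-GFP and 12.1 and 11.9 in AAV-Cre. Both groups overlapped for Rps29 and not for Rpl27 or Rpl15, but the median fold of coding genes was itself lower in AAV-Cre, so ranks are used to compare the groups. Rpl13a, which also takes part in translational silencing of inflammatory mRNAs, had 11.3 and 11.5 in AAV-GFP and 10.03 and 12.1 in AAV-Cre. Rpl18 had 8.71 and 10.7 in AAV-GFP and 7.99 and 7.60 in AAV-Cre, from a peak 2571 to 2617 bp from its annotated start. At that start itself its folds were only 4.36 and 3.51 in AAV-GFP and 4.08 and 3.61 in AAV-Cre.

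At the other end, Rpl8 had the weakest peaks, with folds of 5.43 and 3.74 in AAV-GFP and 3.46 and 4.54 in AAV-Cre. Rpl28 had 6.72 and 5.50 in AAV-GFP and 4.76 and 4.35 in AAV-Cre, and Rps9 had 7.30 and 7.30 in AAV-GFP and 4.88 and 5.26 in AAV-Cre. Rpl28, Rpl8 and Rpl36a also had the narrowest peaks, with mean widths of 286, 277 and 316 bp. The widest belonged to Rpl27a, Rps25 and Rps29, with mean widths of 828.5, 822 and 797 bp. Rps29 was thus high in both height and width, whereas Rpl36a had narrow peaks of fold 11.8 and 11.3 in AAV-GFP and 7.54 and 9.59 in AAV-Cre.

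To compare the groups, the 9057 protein-coding genes with a gene-end peak in all 4 libraries were ranked in each library by the −log10 p of the strongest peak, which makes the 4 ranked lists equal in length. In this shared rank 0 is the strongest and 100 the weakest gene, a shift is the AAV-Cre mean minus the AAV-GFP mean, and a positive shift is a weaker rank after Cre. A gene is called weaker or stronger where both AAV-Cre ranks lie beyond both AAV-GFP ranks. With 2 libraries a group the 4 libraries divide in 3 ways, so an exact permutation test cannot give a p under 0.333, and no test was run. Nothing says whether the libraries of a group came from separate animals.

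As a group, ribosomal protein genes kept an average place in the ranking. The median shared rank of the 60 members was 51.3 and 52.5 in AAV-GFP and 48.5 and 54.2 in AAV-Cre, where coding genes stand close to 50 in each library. The median shift was -1.34 against -0.28 for coding genes, whose shifts had an SD of 14.5. On average 26 members were weaker after Cre (43.3%, coding genes 48.7%) and 34 stronger. Ranks did not overlap and were weaker at 14 members (23.3%, background 19.0%) and stronger at 10 (16.7%, background 19.6%). Both shares are near the background. The gap between replicates, a median of 11.9 for AAV-GFP and 14.1 for AAV-Cre (coding genes 9.54 and 11.4), was wide beside these shifts. The shift exceeded both gaps at 15 members, a count not made for coding genes. The strongest peaks of the 4 libraries shared a common stretch at 56 of the 60 members, where 89.7% of ranked coding genes had one, and did not at 4, Rpsa, Rpl41 and Rpl35a among them. Among the 56, a restriction chosen after the data were seen, 13 were weaker (23.2%, coding genes 19.3%) and 9 stronger (16.1%, coding genes 19.7%).

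**Figure D3:**
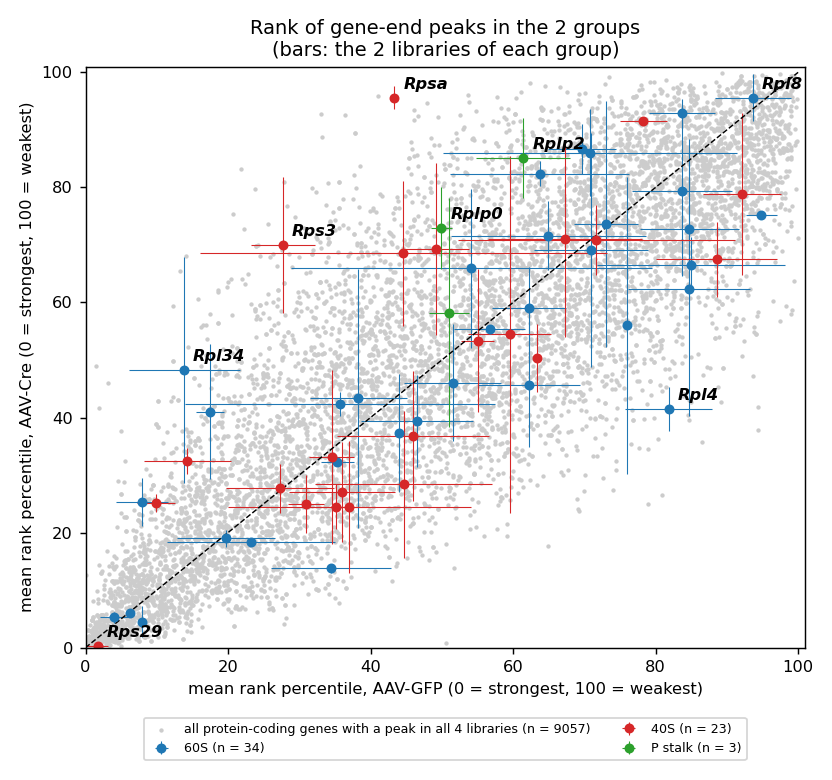
Scatter of the mean shared rank (0 strongest, 100 weakest) in AAV-GFP on the horizontal axis against AAV-Cre on the vertical axis for the 9057 protein-coding genes with a peak in all 4 libraries (grey) and the 60 ribosomal protein genes among them (coloured by subunit), with bars that span the 2 libraries of each group. Members scatter on both sides of the diagonal like the grey points, and Rpsa, Rps3 and Rpl34 stand above it and Rpl4 below it.

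The P stalk, which recruits and activates the elongation factors of translation, had all 3 genes in the ranking. Rplp0, its anchor on the 60S subunit, had folds of 9.10 and 8.91 in AAV-GFP and 5.34 and 6.41 in AAV-Cre, and its shared rank went from 51.4 and 48.5 to 80.2 and 65.8, a shift of 23.0. Rplp2, a tip protein, had 8.42 and 6.63 in AAV-GFP and 4.34 and 5.50 in AAV-Cre, and its rank went from 54.8 and 68.0 to 92.1 and 78.2, a shift of 23.7. Both were weaker without overlap. Rplp1, its partner, had 9.61 and 8.96 in AAV-GFP and 8.32 and 5.91 in AAV-Cre. The rank of Rplp1 was 53.8 and 48.2 in AAV-GFP and 38.3 and 78.2 in AAV-Cre, so the AAV-Cre libraries lay on either side of the controls. Shifts as far to the weaker side as that of Rplp2 were seen at 5.97% of the 9057 genes.

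Among the 23 ranked 40S genes, 6 were weaker (26.1%, coding genes 19.0%) and 4 stronger (17.4%, coding genes 19.6%), with a median shift of -1.47. Rpsa had the largest shift of any member. Its folds were 10.4 and 9.48 in AAV-GFP and 4.53 and 4.07 in AAV-Cre, and its rank went from 43.5 and 43.2 to 93.7 and 97.5. The peak compared was not the same region in each library: those of AAV-GFP replicates 1 and 2 and AAV-Cre replicate 1 covered the annotated start, whereas that of AAV-Cre replicate 2 was a separate peak of 168 bp that ended 418 bp upstream of it. The ranks of the groups lay far apart, but the gap between the AAV-Cre libraries compares separate regions and is not one between replicates of the same peak. The shift of 52.3 was matched or passed toward the weaker side by 0.110% of ranked coding genes, which is 10 genes. The group list of AAV-GFP held the Rpsa peak at fold 10.9, and the group list of AAV-Cre held none there. Rps3, which lines the mRNA entry channel of the 40S subunit and also acts on damaged DNA, had folds of 11.3 and 11.4 in AAV-GFP and 5.18 and 6.70 in AAV-Cre. The rank of Rps3 went from 32.2 and 23.2 to 81.8 and 58.2, a shift of 42.3 that 0.519% of genes matched or passed. Rpsa kept its weaker call in all 8 other settings in which it was ranked, and Rps3 in all 10, leave-one-out settings not counted. Rpsa was not ranked where the strongest peaks of the 4 libraries had to share a common stretch. Nor was it ranked with a −log10 q of at least 5, where it had a peak in AAV-GFP alone.

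Other 40S genes showed smaller differences in either direction. Rps19, the gene most often mutated in Diamond-Blackfan anaemia, was weaker, with folds of 12.8 and 10.4 in AAV-GFP and 7.59 and 7.60 in AAV-Cre and ranks of 7.20 and 12.6 against 26.8 and 23.6. Rps21 and Rps9 were also weaker, with shifts of 18.2 and 13.3. Rps6, the target of S6 kinases, had folds of 15.2 and 8.67 in AAV-GFP and 8.18 and 10.8 in AAV-Cre, and its groups overlapped. Rps15a was stronger in rank after Cre, from 97.0 and 80.1 to 74.0 and 61.0, although its folds of 4.94 and 6.24 in AAV-GFP and 5.63 and 6.65 in AAV-Cre overlapped. Rps27a, which encodes ubiquitin fused to a 40S protein, was stronger by a shift of -10.6, and Rps23 by -12.9. Rps29 was called stronger on a shift of only -1.47, since it was near the top of every list.

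Among the 34 ranked 60S genes, 6 were weaker (17.6%, coding genes 19.0%) and 6 stronger (17.6%, coding genes 19.6%), with a median shift of -1.57. Rpl34 had folds of 20.2 and 13.5 in AAV-GFP and 6.35 and 9.77 in AAV-Cre, and its rank went from 6.04 and 21.6 to 67.9 and 28.7. The shift of 34.4 was matched or passed by 1.62% of genes, but the AAV-Cre libraries differed from each other by more than that. Rpl7a, Rpl31, Rpl24 and Rpl28 were weaker by 18.7, 17.4, 17.0 and 9.12.

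On the stronger side, Rpl4 had the largest shift, -40.3, with ranks of 87.9 and 75.8 in AAV-GFP and 37.7 and 45.4 in AAV-Cre. Its ranked peak is the one at Snapc5, with folds of 6.48 and 7.16 in AAV-GFP and 8.70 and 8.19 in AAV-Cre. At the annotated start of Rpl4 itself the folds were 3.98 and 4.47 in AAV-GFP, none in AAV-Cre replicate 1 and 4.16 in AAV-Cre replicate 2, so the shift describes the Snapc5 end and not the Rpl4 start. Rpl30 was stronger by -20.7, with folds of 13.8 and 9.58 in AAV-GFP and 11.6 and 11.8 in AAV-Cre. Rpl35a was stronger by -19.7, with folds of 5.58 and 4.64 in AAV-GFP and 5.97 and 6.19 in AAV-Cre, from peaks at an end shared with Iqcg. Its value in AAV-GFP replicate 2 came from a separate peak of 140 bp that began 374 bp downstream of the annotated start, whereas the peaks of the other 3 libraries covered the start. Rpl13a and Rpl27a were called stronger on shifts of only -3.46 and -3.08. Rpl5 was stronger by -18.4, with folds of 9.58 and 4.88 in AAV-GFP and 6.46 and 7.52 in AAV-Cre. Rpl11, which forms with Rpl5 and the 5S RNA the particle that binds Mdm2 when ribosome assembly fails, had folds of 13.7 and 6.80 in AAV-GFP and 7.56 and 5.95 in AAV-Cre, and its groups overlapped. The pair thus showed no common direction.

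The place of a gene in the control ranking bears on the calls. Among coding genes with a mean AAV-GFP rank under 10, 32.4% were weaker and 10.7% stronger after Cre, whereas from 50 to 100 the shares were 12.6 and 24.2%. Of the 6 members under 10, 2 were weaker and 2 stronger, and of the 30 members from 50 to 100, 5 were weaker and 5 stronger. Of the 5 members from 10 to 25, 3 were weaker, Rpl34 and Rps21 among them, where 28.0% of coding genes were. Genes that host a snoRNA were open in all 4 libraries at 24 of 29, and 6 of those 24 were weaker. Of the other 52 members 36 were open in all 4, and 8 of those 36 were weaker. Among all ranked coding genes 19.0% were weaker.

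Genes that work beside the ribosomal proteins were open about as often or more often. A gene-end peak in all 4 libraries was present at 58 of 78 mitochondrial ribosomal protein genes (74.4%), 56 of 77 respiratory chain subunits (72.7%), 37 of 40 translation factors (92.5%), 32 of 40 ribosome assembly factors (80.0%), 18 of 22 regulators of ribosomal protein synthesis (81.8%) and 13 of 17 genes of RNA polymerase I and its factors (76.5%). Of all ranked coding genes, 19.0% were called weaker and 19.6% stronger. In these lists, weaker and stronger calls came to 13 and 13 of the 58 ranked mitochondrial ribosomal protein genes (22.4 and 22.4%). For the respiratory chain they came to 12 and 14 of 56 (21.4 and 25%). For translation factors they came to 4 and 3 of 37 (10.8 and 8.11%), both under the shares of coding genes. For assembly factors they came to 5 and 2 of 32 (15.6 and 6.25%). For regulators they came to 4 and 1 of 18 (22.2 and 5.56%), and for RNA polymerase I to 2 and 3 of 13 (15.4 and 23.1%). The median shifts of these 6 lists ran from -3.29 for RNA polymerase I to 1.00 for assembly factors, beside -1.34 for the ribosomal protein genes.

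**Figure D4:**
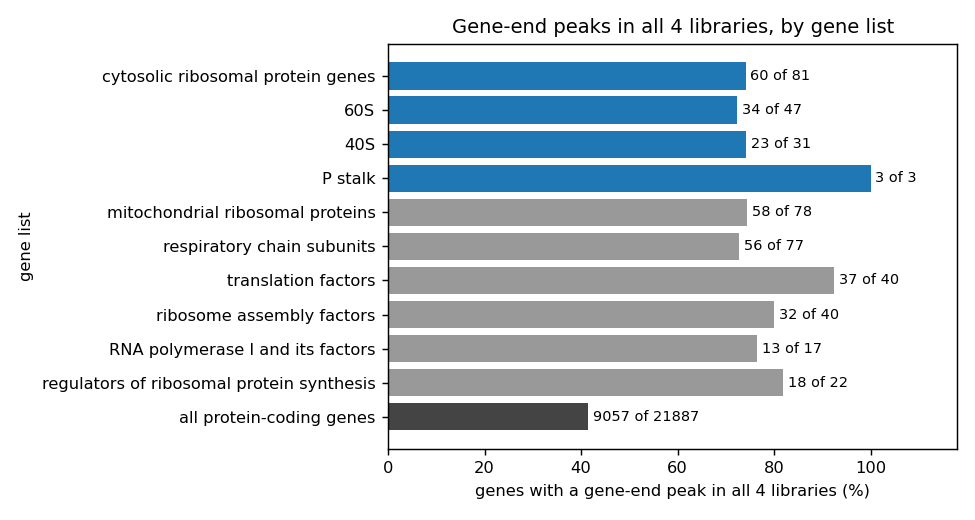
Bars of the percentage of genes with a gene-end peak in all 4 libraries (horizontal axis, from 0), for ribosomal protein genes and their subunits (blue), 6 related lists (grey) and all protein-coding genes (dark), with the counts beside each bar. Ribosomal protein genes stand at 60 of 81, close to the 58 of 78 of mitochondrial ribosomal proteins, and each list lies above the 9057 of 21887 of all protein-coding genes.

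Of 7 further genes that encode ribosomal or ribosome-bound proteins under names outside the rule, 5 were open at an end in every library. Rpl22l1, the copy of Rpl22, was weaker after Cre, with folds of 19.5 and 13.04 in AAV-GFP and 9.56 and 9.38 in AAV-Cre, and Rpl36al was weaker with 14.7 and 13.2 against 8.32 and 7.80. Rack1, a scaffold on the 40S subunit, was stronger by a shift of -17.6. Fau had folds of 4.36 and 6.24 in AAV-GFP and 6.61 and no peak in AAV-Cre, and Rps27rt had no peak in any library. Among regulators, Myc was stronger by -17.6 from folds of 4.12 and 4.43 in AAV-GFP and 5.10 and 4.62 in AAV-Cre. Eif4ebp2, a translational repressor that mTOR inactivates, was weaker by 39.2 from folds of 14.3 and 12.7 in AAV-GFP and 7.44 and 6.27 in AAV-Cre.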

How the data were processed

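ATAC-seq peak lists of 2 AAV-GFP and 2 AAV-Cre libraries and 1 list per group were used as deposited. FastQC, Trim Galore, Bowtie2 and MACS2 and the mm10 build are named, with no versions, in the submitters' processing notes. Each deposited peak carries the authors' fold enrichment (a ratio), −log10 p, −log10 q and a score that follows the q value. The labels tie each group list to its group and do not state how it was made from the libraries. Read depth is unknown, so no counting interval is given.

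Peaks were joined to the protein-coding genes of a RefSeq table on GRCm38.p6, the assembly of mm10, where at least 1 base lay within 1 kb of either gene end. The peak with the highest −log10 p stood for a gene. Strands and starts came from the RefSeq promoter table. Ranks, medians and motif counts were computed with Python 3.11.15, numpy 2.4.6 and pandas 2.3.3, and the figures were drawn with matplotlib 3.10.9. The gene-to-peak join was tested on simulated peaks placed at 200 genes, and it found 127, 118, 129 and 129 of as many in the 4 libraries with 0 false ones. No test was run between groups of 2.

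The members and gene lists were chosen with earlier results of these data known. The genes named by rule were every member without a peak in all 4 libraries, the 5 strongest and 5 weakest, the 5 largest shifts each way without overlap, the 3 widest and 3 narrowest, and a fixed set of well-studied members (Rps4l of that set was not matched). Other genes were named after their values were seen. A few genes are counted but not reported here by name. In the related lists Polr1f, Polr1g and Polr1h were not matched. The alternatives were the length of the lists, a −log10 q of at least 5, windows of 500 and 2500 bp, the start end alone, the summit in the window, merged regions, ranking by fold, the nearest peak, the group lists and each library left out. Windows around annotated starts, genes whose peak lies at no other gene, genes whose peaks share a common stretch, and gene bodies were added after the data were seen.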

Additional observations from a re-analysis of the deposited data

How the results depend on the processing

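The count of ribosomal protein genes with a peak in every library (60) stayed within 1.5 times under each of 15 alternatives, and the count in AAV-Cre alone was 0 under each of 15. The count in AAV-GFP alone (4) became 2 with lists of equal length (2.47%, coding genes 1.18%) and with a window of 2500 bp (2.47%, coding genes 3.34%). With the start end only it was 2 of the 61 members with a known start (3.28%, coding genes 2.77%). It was also 2 of 61 with windows around annotated starts, which were added after the data were seen (3.28%, coding genes 2.93%). It became 9 with −log10 q of at least 5 (11.1%, coding genes 5.33%) and 14 in the group lists (17.3%, coding genes 9.77%). These shares are of all genes, or of those with a known start where the start is used. In the AAV-GFP group list 92.6% of members and 51.1% of coding genes had a peak that could be absent after Cre. With a library left out, the count in AAV-GFP alone ran from 4 to 10. It was 9 without AAV-Cre replicate 1 (11.1%, coding genes 5.72%) and 10 without AAV-Cre replicate 2 (12.3%, coding genes 6.91%). In these 2 settings absence from a single AAV-Cre library was enough, and the shares are again of all genes. With the start end only, 12 of 40 ranked members were weaker (30%, coding genes 19.1%) and 6 stronger (15%, coding genes 20.05%). With windows around annotated starts, 12 of 45 were weaker (26.7%, coding genes 19.3%) and 7 stronger (15.6%, coding genes 19.9%). The 14 members weaker after Cre became 7 of the 42 ranked with −log10 q of at least 5 (16.7%, coding genes 19.0%). Their count ran from 19 to 29 with a library left out. The 10 stronger became 6 with the start end only, where 40 members were ranked, and ran from 18 to 25 with a library left out. With a library left out a group is a single rank, so non-overlap is easier to meet, and coding genes at large had 31.0 to 35.3% weaker and 32.2 to 37.1% stronger. Without AAV-Cre replicate 2, 29 of 65 ranked members were weaker (44.6%, coding genes 34.9%). The median percentile within each list moved to 27.2, 28.8 and 29.6 for AAV-GFP replicates 1 and 2 and AAV-Cre replicate 2 with lists of equal length, and to 17.9, 29.1, 33.7 and 35.6 with −log10 q of at least 5. It moved to 26.7, 32.7 and 32.9 for AAV-GFP replicate 2 and AAV-Cre replicates 1 and 2 when ranked by fold. For AAV-Cre replicate 1 it moved to 30.0 with a window of 500 bp and to 29.6 with the nearest peak. The cause of these moves was not tested, beyond the fewer peaks or genes that the shorter lists, the q limit and the start end leave. No paired analysis was possible because no result comes from a test and nothing in the labels ties a library of 1 group to a library of the other. Depth limits each absence: a missing peak is one not called.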
